A study of Macaca mulatta with 24 samples.

Results

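The 10 genes described here encode the 4 AMPA receptor subunits (GRIA1, GRIA2, GRIA3 and GRIA4), the 5 kainate receptor subunits (GRIK1, GRIK2, GRIK3, GRIK4 and GRIK5) and CACNG8, a transmembrane AMPA receptor regulatory protein that travels with AMPA receptors and shapes their gating. They were chosen by gene symbol and by no rule on their values, although earlier results of these data were known. All 10 were found among the 17208 gene symbols of the nucleus accumbens core (NAcc) table. RNA-Seq was run on the NAcc core of 24 unrelated adult male rhesus macaques, 1 library from each. The 8 LD* animals (low or binge drinkers) had self-administered ethanol to a mean of 0.47 to 2.07 g/kg a day under year-long daily open access, and the 8 HD* animals had taken 2.74 to 3.78 g/kg. The HD* group joined 4 heavy drinkers (HD) with 4 very heavy drinkers (VHD). The 8 controls had the same panels, induction and housing but drank water, with a maltose dextrin solution to match calories. All animals were necropsied without imposed abstinence, and drinking groups were self-selected rather than assigned. The animals came from 4 cohorts that did not balance the groups. The HD* animals came equally from cohorts 5 and 7a (4 each), the LD* animals from cohorts 4 (2), 7a (3) and 7b (3), and the controls from cohorts 5 (3), 7a (2) and 7b (3). Values are read as TPM, transcript abundances scaled for gene length and to a fixed total in each library. This reading comes from the values, since the table is named as normalized counts, and the gene lengths behind it are not given in the sources used here. The order of the genes by level and their shares of a subfamily rest on it, whereas a comparison of 1 gene between animals uses lengths through the library total alone. The depth of each library is unknown from these values, and intervals cover the spread between animals alone.

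AMPA and kainate receptors are ion channels opened by glutamate, each built from several subunits. AMPA receptors carry most of the fast excitatory current at synapses. GRIA2, when its transcript has been edited, makes the channel impermeable to calcium, so receptors without GRIA2 pass calcium. Kainate receptors act before and after the synapse. GRIK1, GRIK2 and GRIK3 can form channels alone, whereas GRIK4 and GRIK5 join them as high-affinity partners. In the NAcc the main recipients of glutamate input are the striatal projection neurons, which make up most of its neurons, and interneurons and glia also express some of these subunits.

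Some libraries stood apart. Control 6 (cohort 7b) had a median Pearson's r of 0.924 with the other libraries over all genes tested, whereas every other library had at least 0.951. The 12 striatal projection neuron markers summed to 800 TPM in control 6, against 2756 to 12283 TPM in the rest, and its level of GFAP, an astrocyte filament gene, was 6255 TPM. Pan-neuronal markers summed to under 2000 TPM in 4 libraries, HD* 8, HD* 6, LD* 5 and control 8, and to 2344 TPM or more in the others. The cortical neuron marker SLC17A7 was at least 100 TPM in 6 libraries, with 722 TPM in LD* 4. In bulk tissue, fewer cells of a type and less RNA per cell cannot be told apart. The part of these differences in the results below was not tested. Values without the libraries that moved a result most are given beside the group comparisons.

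GRIA1 and GRIA2 were the most abundant members. GRIA1 averaged 155.4 ± 55.3 TPM (SD, n = 24 animals) and GRIA2 averaged 135.1 ± 51.5 TPM, and GRIA1 was the higher in 19 of 24 animals. GRIK5, the high-affinity kainate partner, followed at 89.7 ± 14.2 TPM. GRIA3 at 57.8 ± 20.1 TPM and CACNG8 at 54.2 ± 12.3 TPM were not distinguished (paired permutation test, Benjamini-Hochberg adjusted p = 0.854), with GRIA3 the higher in 17 of 24 animals. The kainate subunits GRIK2 (27.0 ± 5.83 TPM) and GRIK3 (17.9 ± 7.61 TPM) came next. GRIA4, an AMPA subunit best known from interneurons, stood at 11.8 ± 5.22 TPM and GRIK4 at 10.3 ± 4.30 TPM, a step that only just passed (adjusted p = 0.0493, GRIA4 higher in 16 of 24 animals). GRIK1 was the lowest at 5.64 ± 3.57 TPM. The other 7 neighbouring pairs of this order differed with an adjusted p of 0.00184 or less in the same 2-sided test over 9 pairs.

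GRIA1 and GRIA2 together made up most of the AMPA subunit transcripts, and GRIK5 most of the kainate ones. GRIA1 held a mean of 43.3% of the summed AMPA subunit TPM over the 24 animals, GRIA2 36.9%, GRIA3 16.1% and GRIA4 3.77%. GRIA2 held between 33.5% and 44.4% of the AMPA sum in all but 2 animals, and the exceptions were control 6 at 26.01% and control 8 at 30.1%. GRIA4 reached 13.6% in control 6, against 7.72% or less elsewhere. Of the kainate sum, GRIK5 held 60.2%, GRIK2 17.9%, GRIK3 11.5%, GRIK4 6.71% and GRIK1 3.73%. The AMPA sum was 2.35 ± 0.622 times the kainate sum, from 1.13 in HD* 8 and 1.16 in control 8 to 3.31 in LD* 8. These shares are descriptions, since each rests on the same library as the others.

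The members differed widely in how much they varied between animals. Across the 24 animals the SD on the log2(TPM + 1) scale was 0.70 for GRIA2 and for GRIK1, above that of 95.2% and 95.1% of the 13637 genes tested, and 0.60 for GRIA1 and 0.62 for GRIA3. It was only 0.23 for GRIK5, above that of 21.1% of genes. CACNG8 at 0.32 and GRIK2 at 0.34 lay near the median gene at 0.32. GRIK1 spanned 13.8-fold between animals, from 1.18 TPM in HD* 8 to 16.3 TPM in control 6. GRIK5 spanned 1.84-fold. The 3 drinking groups accounted for 1.30% to 10.5% of the variance of a member on the log2 scale, and cohort for 4.84% to 30.2%. For the median gene tested these shares were 6.79% and 15.3%, each computed alone.

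**Figure D1:**
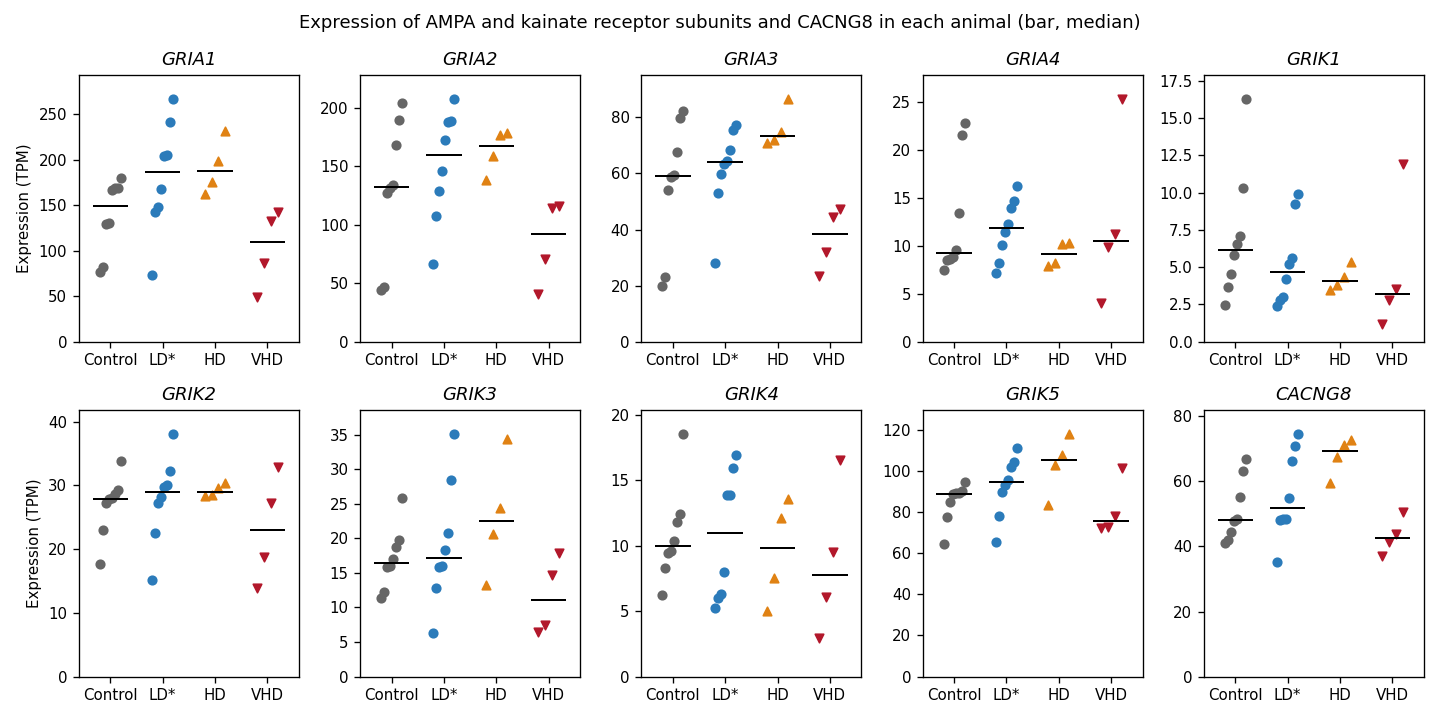
Expression (TPM, linear axes from 0) of each of the 10 genes in every animal, by control, LD*, HD and VHD category (HD and VHD together make HD*), with a bar at the median. GRIA1, GRIA2, GRIA3 and CACNG8 lie lower in all 4 VHD animals than in all 4 HD animals, while controls and LD* animals span both.

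GRIA1, GRIA2 and GRIA3 had a gap in their values at the same place. The same 5 animals (HD* 6, HD* 8, LD* 5, control 6 and control 8) were the lowest for each of the 3 genes. In them GRIA1 ranged from 49.4 to 86.4 TPM, against 129.8 to 266.4 TPM in the other 19 animals. GRIA2 ranged from 40.8 to 70.4 TPM in the 5 and from 107.5 to 207.3 TPM in the 19. GRIA3 ranged from 19.9 to 31.8 TPM in the 5 and from 44.6 to 86.5 TPM in the 19. These animals came from all 3 groups and from cohorts 7a and 7b, and 4 of them were the libraries with a pan-neuronal marker sum under 2000 TPM. GRIA4, GRIK1 and GRIK4 showed no such split, and control 6 had the highest GRIK1 and GRIK4 (18.5 TPM) of all animals. The 4 low animals other than control 6 also had the lowest factors of TMM rescaling, which aligns libraries on a trimmed mean of gene ratios. Those factors were 0.695 (HD* 8), 0.832 (HD* 6), 0.861 (LD* 5) and 0.878 (control 8), against 0.936 or more elsewhere. Rescaling divides by the factor, so it raises these 4 libraries most. The gap was described before rescaling alone.

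The main comparison asked whether expression differed between HD* animals and controls. No member passed the test used here. The paper, with DESeq2 on read counts, called many genes in this comparison and lists GRIA3 among those downregulated in HD* animals. Its qPCR of GRIA gave a downward trend that did not reach significance. That count-based test was not repeated here, so the 2 outcomes for GRIA3 differ in method as well as result. The same holds for the number of genes called, which was 0 in the test used here. GRIA1 had a median of 152.2 TPM in HD* animals (range 49.4 to 231.6) and 148.7 TPM in controls (76.9 to 179.6). GRIA2 had medians of 127.2 TPM (40.8 to 178.6) and 132.4 TPM (43.8 to 204.2). The 2 groups overlapped over most of their range for both genes. The log2 fold change (HD* minus control, on log2(TPM + 1)) was 0.028 ± 0.28 (SE) for GRIA1, -0.024 ± 0.33 for GRIA2 and 0.052 ± 0.30 for GRIA3. It was 0.10 ± 0.12 for GRIK5 and 0.095 ± 0.16 for CACNG8. The furthest from 0 was the kainate subunit GRIK1, at -0.54 ± 0.33 (7.08 ± 4.41 TPM in controls, 4.56 ± 3.21 TPM in HD* animals, SD, n = 8 each). Adjusted p-values of the members ran from 0.706 to 0.980 (limma). Of all 13637 genes, 0 (0%) passed the adjusted threshold of 0.05, and 5.68% had an unadjusted p under 0.05, with 0 members among them. The 6 members below 0 (GRIA2, GRIA4, GRIK1, GRIK2, GRIK3 and GRIK4) compare with 77.8% of all genes below 0. The member median was -0.042 and that of all genes -0.12. The directions of the small differences were not stable. Under TMM rescaling, which aligns libraries on a trimmed mean of their gene ratios and moved the median of all genes from -0.12 to 3.6e-05, GRIA2, GRIK2 and GRIK3 were above 0 (0.11, 0.067 and 0.018). With cohort as a covariate GRIA1, GRIA3 and CACNG8 were below 0 (-0.12, -0.13 and -0.036). Without control 6, GRIA1 was -0.069, GRIA3 was -0.13, GRIA2 was -0.22 and GRIK1 was -0.36, and no member passed. Without the 4 animals with a pan-neuronal marker sum under 2000 TPM, GRIA1 was 0.26, GRIA2 0.15, GRIA3 0.20, GRIK1 -0.29 and GRIK4 -0.044, and again none passed.

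The 95% intervals show what size of change these animals could have hidden. For GRIK5 the interval of the log2 fold change ran from -0.14 to 0.35 and for CACNG8 from -0.24 to 0.43. For GRIA2 it ran from -0.71 to 0.66, for GRIA3 from -0.56 to 0.66, and for GRIK1 from -1.21 to 0.13. The intervals of the variable genes are wide, and a missed threshold does not show equal expression.

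**Figure D2:**
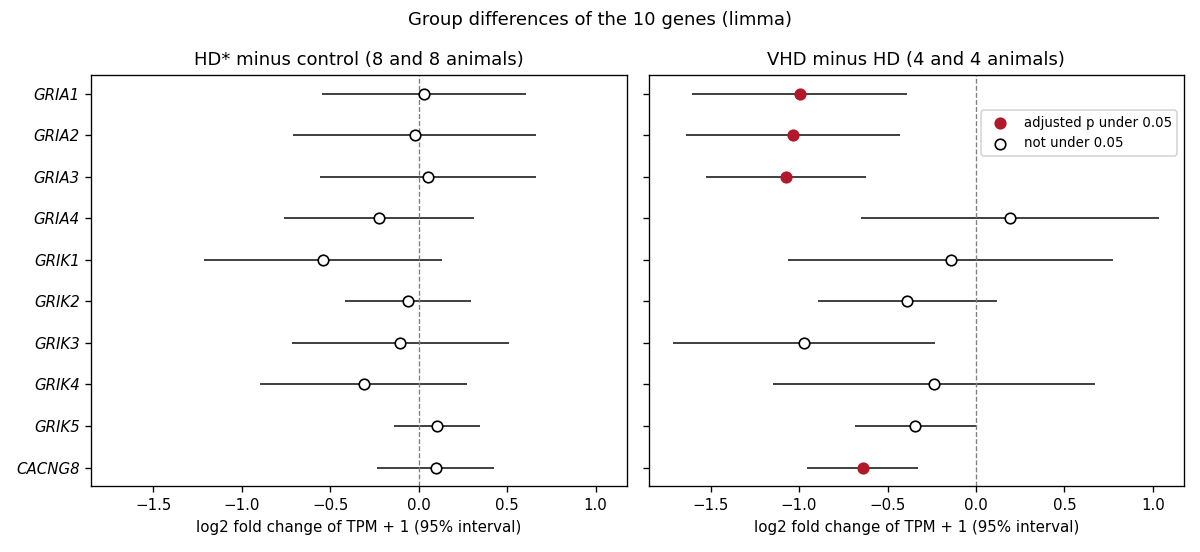
Log2 fold change of TPM + 1 (horizontal axis, point) with its 95% interval (line) for each gene, HD* minus control on the left and VHD minus HD on the right. Filled points have a limma adjusted p under 0.05 over all genes. On the left all 10 intervals include 0, and on the right GRIA1, GRIA2, GRIA3 and CACNG8 are filled and below 0.

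LD* animals also did not differ from controls in any member by the test. GRIA1 was 180.9 ± 61.4 TPM (SD, n = 8) in LD* animals and 137.9 ± 40.5 TPM in controls, a log2 fold change of 0.36 ± 0.28 (SE). GRIA2 was 0.31 ± 0.33 and GRIA3 0.23 ± 0.30 on the same scale. GRIK1 was -0.32 ± 0.33. Without control 6 these became 0.27 for GRIA1, 0.11 for GRIA2, 0.048 for GRIA3 and -0.14 for GRIK1. Without control 8 GRIA2 was 0.13 and GRIA3 0.077, and without the animals with SLC17A7 of at least 100 TPM GRIK1 was -0.59. Of all genes 0% passed, with a smallest limma adjusted p of 0.9999, and 2.84% had an unadjusted p under 0.05, none of them a member. Genes below 0 made up 58.1% of all genes and 3 of the 10 members (GRIA4, GRIK1 and GRIK4). Under TMM GRIA4 was 0.020.

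Between HD* and LD* animals, all 10 members were lower in HD* and none passed. The log2 fold change was -0.34 ± 0.28 (SE) for GRIA1, -0.33 ± 0.33 for GRIA2 and -0.24 ± 0.28 for GRIK4, and nearest to 0 for GRIK5 (-0.011 ± 0.12) and CACNG8 (-0.012 ± 0.16). Without HD* 8 these were -0.13 for GRIA1, -0.13 for GRIA2 and -0.067 for GRIK4, GRIA3 moved from -0.18 to -0.021, and GRIK2 (0.025) and CACNG8 (0.029) were above 0. Of all genes 73.3% were below 0, 0% passed the limma adjusted threshold, and 1.08% had an unadjusted p under 0.05, with 0 members. Under TMM GRIK5 and CACNG8 were above 0 (0.077 and 0.075). The comparison of LD* with controls shares its LD* animals, and the comparison of HD* with controls its HD* animals, with this one.

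The ratios of 2 subunits within a library do not depend on the scaling of that library. None of the 6 ratios tested differed between control, LD* and HD* animals. The log2 ratio of GRIA2 to GRIA1, which bears on how many receptors could lack GRIA2, was -0.20 ± 0.42 (SD, n = 8) in controls, -0.25 ± 0.18 in LD* animals and -0.25 ± 0.16 in HD* animals. Its lowest value (-0.90, in control 6) and its highest (0.29, in control 1) were both in controls. The largest difference from controls was that of GRIK1 to GRIK2, at -2.70 ± 0.58 in HD* animals and -2.10 ± 0.93 in controls (exact permutation p = 0.149, adjusted p = 0.801, 2-sided). The difference of -0.59 became -0.37 without control 6. Within cohorts this difference was -0.024 in cohort 5 and -1.03 in cohort 7a. All 18 adjusted p-values (6 ratios in 3 comparisons, exact permutation over 12870 assignments) were 0.801 or more. Ratios were not tested between VHD and HD animals. The log2 ratio of GRIA4 to GRIA2 ranged from -3.52 to -2.19 in VHD and from -4.25 to -4.10 in HD. The ranges of the other ratios overlapped between these categories.

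The study also set the 4 VHD against the 4 HD animals, and here 4 members were lower in VHD. GRIA1 was 133.0, 142.2, 86.4 and 49.4 TPM in VHD (HD* 1, 4, 6 and 8), and 162.1, 198.7, 231.6 and 175.7 TPM in HD (HD* 2, 3, 5 and 7). Every VHD animal lay below every HD animal. The log2 fold change was -0.997 ± 0.28 (SE, limma adjusted p = 0.0344). GRIA2 was 114.0, 116.2, 70.4 and 40.8 TPM in VHD, and 176.7, 158.3, 178.6 and 138.2 TPM in HD. The groups again did not overlap, with a log2 fold change of -1.03 ± 0.28 (limma adjusted p = 0.0301). GRIA3 was 47.4, 44.6, 31.8 and 23.4 TPM in VHD, and 71.9, 70.8, 86.5 and 74.8 TPM in HD. It had the smallest p of the members, with a log2 fold change of -1.07 ± 0.21 (limma adjusted p = 0.00901). CACNG8 was 50.7, 41.2, 37.2 and 43.9 TPM in VHD, and 59.5, 67.6, 71.3 and 72.9 TPM in HD. Its change was the smallest of the 4 at -0.64 ± 0.14 (limma adjusted p = 0.0152) with no overlap.

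The fourth AMPA subunit, GRIA4, did not pass. GRIA4 was 9.87, 25.3, 11.2 and 4.03 TPM in VHD, and 10.2, 8.21, 10.3 and 7.88 TPM in HD, so the VHD animals lay on both sides of the HD animals (log2 fold change 0.19 ± 0.39). Among kainate subunits none passed. GRIK3 came closest, at 14.8, 17.9, 6.40 and 7.45 TPM in VHD, and 13.2, 24.4, 20.6 and 34.4 TPM in HD (log2 fold change -0.97 ± 0.34, limma adjusted p = 0.0726). GRIK5 was 81.1 ± 13.8 TPM in VHD and 102.9 ± 14.6 TPM in HD (SD, n = 4 each, log2 fold change -0.34 ± 0.16, limma adjusted p = 0.152). GRIK2 (-0.39 ± 0.23), GRIK4 (-0.24 ± 0.42) and GRIK1 (-0.14 ± 0.42) had larger errors relative to their size. HD* 4 was the highest of the 8 animals for GRIA4, GRIK1 (11.9 TPM), GRIK2 (32.9 TPM) and GRIK4 (16.6 TPM), and HD* 8 was the lowest for each of these 4 genes.

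Many other genes also differed between these 8 libraries. Of all 13637 genes, 11.4% were called lower in VHD and 3.23% higher, against 4 and 0 of the 10 members. At an unadjusted p under 0.05, 24.6% of genes and 6 members were lower. The share with every VHD animal below every HD animal was 17.9% of all genes and 4 of the 10 members, and the share with every VHD animal above was 5.39% and 0. Genes with a log2 fold change below 0 made up 65.2% of all genes and 9 of the 10 members. The median log2 fold change was -0.51 over the members and -0.17 over all genes. TMM rescaling brought the median of all genes to 0.0048 and changed the split of genes with an unadjusted p under 0.05 from 3355 lower and 1102 higher to 2597 lower and 2420 higher. Under it GRIA1 (-0.79), GRIA2 (-0.83) and GRIA3 (-0.87) kept adjusted p-values of 0.0301, 0.0245 and 0.00917, and CACNG8 (-0.44) no longer passed (0.0848).

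Cell type markers moved with this difference. Of 12 striatal projection neuron markers, 11 were called lower in VHD, with a list median of -1.20. They included DRD1, the dopamine receptor of direct-pathway neurons (-1.20), DRD2 (-1.19) and the striatal signalling genes PPP1R1B (-1.03) and PDE10A (-1.61), but not TAC1 (-0.061). Their summed level was 3445 to 6319 TPM in VHD and 9499 to 11236 TPM in HD, without overlap, and none of them was at 0 in any animal. Of 7 pan-neuronal markers, SNAP25 and SYT1 were called lower, and the list sum was 1539 to 3185 TPM in VHD and 2886 to 3497 TPM in HD. The astrocyte sum was 3992 to 6715 TPM in VHD and 1870 to 3377 TPM in HD, with GFAP called higher (1.39). GFAP was the 1 of 8 astrocyte markers called, the list median was 0.24, SOX9 was -0.29, and the mean centred score of the list overlapped (-0.36 to 0.61 in VHD, -0.60 to 0.026 in HD). Of 7 microglial markers 3 were called higher, and of 10 oligodendrocyte markers only MBP was. No gene was called in the lists of oligodendrocyte precursor (5 markers), endothelial (4 of 5 tested), interneuron (7) or cortical glutamatergic neuron (6) markers. The cortical list nevertheless had a median of -1.19, with SLC17A7 at -1.73 ± 1.25 (SE) and NEUROD6 at -1.38 ± 0.70, and its summed level was 2.32 to 23.1 TPM in VHD and 1.42 to 245 TPM in HD, with overlap. Their part in the change of the AMPA subunits was not tested, beyond a model with the striatal projection neuron score as a covariate, in which 0 genes passed in limma, and 1425 lower and 347 higher genes had an unadjusted p under 0.05. In that model GRIA1 was -1.50, GRIA2 -1.29, GRIA3 -1.15 and CACNG8 -0.31, with adjusted p-values of 0.390, 0.407, 0.387 and 0.625. The score separated the 2 categories without overlap, so category and score cannot be told apart in 8 animals.

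The calls depended on single animals to different degrees. GRIA3 passed on leaving out any 1 of the 8 animals, with adjusted p-values from 0.00345 to 0.0416. GRIA1 did not pass without HD* 2 (0.0562), 3 (0.0870), 5 (0.104), 6 (0.111) or 7 (0.0704). GRIA2 did not pass without HD* 2 (0.0728), 3 (0.0735), 5 (0.0867), 6 (0.101) or 7 (0.0559). CACNG8 did not pass without HD* 3 (0.0549), 5 (0.0611), 6 (0.0638) or 7 (0.0569). GRIK3 passed only without HD* 4 (-1.20, adjusted p = 0.0148). The fold changes of the 4 called genes kept their sign in each case. The largest shift was for HD* 8, without which GRIA1 was -0.69, GRIA2 -0.72 and GRIA3 -0.88. Without both HD* 6 and HD* 8, the VHD libraries with a pan-neuronal marker sum under 2000 TPM, GRIA3 still passed (-0.71, adjusted p = 0.0298), and GRIA1 (-0.47, 0.105), GRIA2 (-0.49, 0.0666) and CACNG8 (-0.55, 0.0566) did not.

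The difference was present in both cohorts but larger in cohort 7a. In cohort 5 the VHD minus HD difference of mean log2(TPM + 1) was -0.38 for GRIA1, -0.53 for GRIA2, -0.62 for GRIA3 and -0.46 for CACNG8 (2 animals each). In cohort 7a it was -1.61, -1.53, -1.52 and -0.82 for the same genes. Both VHD animals lay below both HD animals in each cohort for these 4 genes. GRIA4, GRIK1 and GRIK4 went in opposite directions in the 2 cohorts, at 0.74, 0.65 and 0.92 in cohort 5 and -0.35, -0.93 and -1.39 in cohort 7a. Whether the VHD effect differed between cohorts was not tested. With cohort as a covariate GRIA1, GRIA2, GRIA3 and CACNG8 had adjusted p-values of 0.0209, 0.0116, 0.00566 and 0.0128.

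Controls did not line up with either category. For GRIA3, 6 of 8 controls lay below all HD animals, and 6 of 8 lay above all VHD animals. For GRIA2, 5 of 8 controls lay below all HD animals, and 6 of 8 lay above all VHD animals. For both genes the 2 controls not above all VHD animals were control 6 and control 8. For CACNG8, 6 of 8 controls lay below all HD animals and 3 above all VHD animals. For GRIA1, 4 of 8 controls were above all VHD animals and 4 were below all HD animals. No test of HD or VHD against controls was made.

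Other genes of AMPA and kainate receptor function were also lower in VHD. Of 45 such genes, 42 could be tested, and 20 were called lower in VHD and 0 higher. By role, 7 of 12 auxiliary subunits, 6 of 12 assembly and trafficking genes, 4 of 8 synapse organizers, 1 of 5 scaffold genes, 2 of 3 RNA editing genes and 0 of 2 delta receptor genes were called lower. The 3 smallest p-values belonged to PRRT2, a presynaptic protein also found in AMPA receptor complexes (551.4 ± 78.5 TPM in HD, 260.0 ± 51.8 TPM in VHD, SD, n = 4 each, log2 fold change -1.09 ± 0.16, limma adjusted p = 0.00418), LRRTM1, a postsynaptic adhesion protein (-0.97 ± 0.15, 0.00435), and GSG1L, an auxiliary subunit that dampens AMPA receptor currents (-1.21 ± 0.20, 0.00546). The AMPA auxiliary subunits SHISA9 (-1.28), CACNG3 (-0.91), SHISA7 (-0.88) and CACNG2 (-0.67) and the kainate auxiliary subunits NETO1 (-0.99) and NETO2 (-0.81) were also called lower. CNIH2 (0.10), CACNG7 (-0.063), CNIH3 (-0.11), CACNG4 (-0.38) and CACNG5 (-0.66) did not pass. ADARB1, the enzyme that edits the GRIA2 transcript, was -0.60 ± 0.18 (limma adjusted p = 0.0413). The list median was -0.61, and 38 of the 42 were below 0. TMM rescaling left 14 called lower with a median of -0.41. Leaving out 1 animal gave 10 calls without HD* 5, 6 without HD* 6, 11 without HD* 3, 12 without HD* 7 and 13 without HD* 2, and between 17 and 25 without one of the others. Without both HD* 6 and HD* 8 there were 6. Of all genes, 11.4% were called lower.

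CNIH2, a cornichon protein that slows AMPA receptor closing, was by far the most abundant auxiliary subunit, at 586.4 ± 127.8 TPM (SD, n = 24). CACNG4 (185.3 ± 47.2 TPM), CACNG7 (150.9 ± 21.8 TPM) and CACNG3 (141.1 ± 48.4 TPM) had higher means than CACNG8, and CACNG2 (25.2 ± 6.54 TPM) and CACNG5 (4.77 ± 1.86 TPM) lower ones. None of the 42 genes passed in the other 3 comparisons (0% of all genes in each). The paper, with its count-based test, lists PRRT1 and NPTX2 of these genes as downregulated in HD* animals against controls. Here their log2 fold changes were 0.027 ± 0.22 and 0.039 ± 0.32 (SE), and that count-based test was not repeated. In HD* against controls the smallest p-values were those of CNIH2 (log2 fold change 0.34 ± 0.16, 651.6 TPM against 512.8 TPM, the 1 gene of the list with an unadjusted p under 0.05), ADARB2 (-0.51 ± 0.25) and GRIP2 (-0.19 ± 0.12). In LD* against controls they were those of CNIH3 (0.43 ± 0.18, again the 1 gene of the list with an unadjusted p under 0.05), ADARB2 (-0.45 ± 0.25) and CNIH2 (0.24 ± 0.16). In HD* against LD* they were those of OLFM1 (-0.32 ± 0.17), NPTXR (-0.53 ± 0.28) and NPTX1 (-0.75 ± 0.45). All of these had adjusted p-values of 0.706 or more.

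Cohort taken alone held a larger share of the variance of GRIK5 (30.2%) and CACNG8 (22.0%) than group taken alone (5.12% and 2.29%). The median gene tested was at 15.3% for cohort and 6.79% for group. Cohort and group overlap in these animals, so the 2 shares are not separate. GRIK5 averages were highest in cohort 4, whose 2 animals were at 101.8 and 104.4 TPM, and its lowest values, 64.2 and 65.1 TPM, were both in cohort 7b. In a model with group and cohort, 0% of genes passed the limma F test of cohort, 8.36% had an unadjusted p under 0.05, and 0 members did. The smallest unadjusted p among members was 0.0861, for GRIA2. The HD* effect was also compared between cohorts 5 and 7a, which hold both groups. GRIK1 was 0.033 in cohort 5 and -0.85 in cohort 7a (difference -0.88 ± 0.70, SE), and GRIA3 was -0.34 and 0.24 (difference 0.58 ± 0.67). The interaction passed for 0% of genes by limma, and 2.16% of genes and 0 members had an unadjusted p under 0.05.

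Ethanol intake was compared with expression within each drinking group, since intake did not overlap between groups. In HD* animals the rank correlation with intake was -0.79 for GRIA2 (exact permutation p = 0.0244, adjusted p = 0.521), -0.73 for GRIA3 and -0.66 for GRIA1. Pearson's r was weaker, at -0.45, -0.53 and -0.40 for these genes, and without the 2 animals farthest from the median intake it was -0.70, -0.78 and -0.72 over 6 animals. HD* 1, with the highest intake of 3.78 g/kg, was not the lowest for any of them. In LD* animals the rank correlation was -0.73 for GRIA1 (exact permutation p = 0.0459, adjusted p = 0.521) and -0.72 for GRIK3, and Pearson's r was -0.63 and -0.51, or -0.49 and -0.42 without the 2 farthest animals. LD* 5, with the highest intake of its group (2.07 g/kg), was the lowest LD* animal for 7 of the 10 members, and its pan-neuronal marker sum was under 2000 TPM. None of the 40 coefficients (10 genes, 2 groups, Pearson and Spearman) passed, with a smallest adjusted p of 0.521 by exact permutation. The HD* animals include the VHD and HD categories, which largely follow intake, so these values are not independent of the comparison of VHD with HD. The categories met at 3.09 g/kg, the intake of both HD* 3 (HD, GRIA3 at 70.8 TPM) and HD* 6 (VHD, 31.8 TPM). No cohort held more than 4 animals of a drinking group, too few for a coefficient within it.

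**Figure D3:**
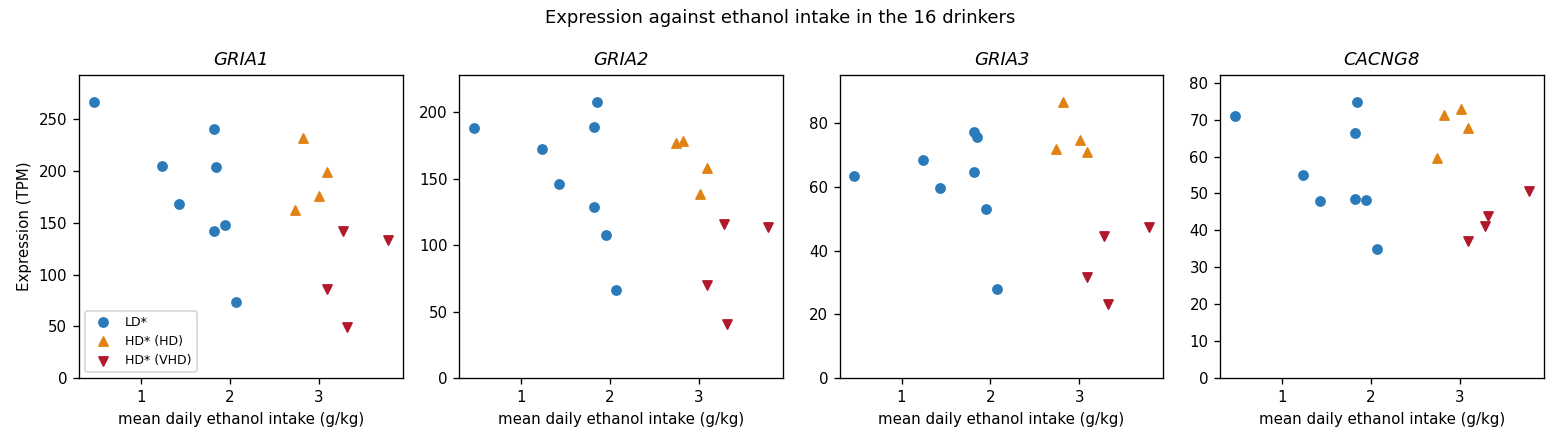
Expression (TPM, linear axes from 0) of GRIA1, GRIA2, GRIA3 and CACNG8 against mean daily ethanol intake (g/kg) in the 16 drinkers, with LD*, HD and VHD animals marked. All VHD animals lie below all HD animals. The HD animal HD* 3 and the VHD animal HD* 6 had the same intake of 3.09 g/kg. The VHD animal with the highest intake (3.78 g/kg) is not the lowest for any of these genes.

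Across the 24 animals the genes other than GRIK3 fell into 2 loose sets that were not fully separate. GRIA1, GRIA2 and GRIA3 rose and fell together, with Pearson's r of 0.97 between GRIA2 and GRIA3 (Spearman's rho 0.92, permutation p = 1e-05, the smallest that 100000 permutations can give, adjusted p = 8.8e-05) and 0.93 between GRIA1 and GRIA2 (rho 0.85, adjusted p = 8.8e-05). Without the 2 animals farthest from the median the r values were 0.96 and 0.90. Within the 19 animals above the gap they were 0.83 and 0.73. CACNG8 went with them (r = 0.80 with GRIA3, rho 0.87, 0.81 in the 19) and so did GRIK5 with CACNG8 (r = 0.81, rho 0.81, 0.72 in the 19). GRIK2 correlated with GRIA1 at 0.88 and GRIA3 at 0.78, but at only 0.46 and 0.06 within the 19 animals, so these relations rest on the 5 low animals. The other set was GRIA4, GRIK1 and GRIK4, with r of 0.81 (rho 0.69) for GRIA4 and GRIK1, 0.80 (rho 0.80) for GRIK1 and GRIK4, and 0.71 (rho 0.63) for GRIA4 and GRIK4, and permutation adjusted p-values of Pearson's r of 0.000136, 8.8e-05 and 0.000536. Without the 2 farthest animals these were 0.72, 0.71 and 0.56, and within the 19 they were 0.73, 0.66 and 0.55. Coefficients were near 0 for GRIA2 with GRIK1 (-0.0078) and for GRIA3 with GRIA4 (-0.025). However, GRIK2 also correlated with GRIA4 (0.54) and GRIK4 (0.55) of the second set. Within cohort 5 GRIK2 was at 0.89 with GRIA4 and -0.58 with CACNG8. GRIK3 correlated with members of both sets, at 0.71 with GRIK2, 0.69 with GRIA1, 0.58 with GRIK4 and 0.53 with GRIK1. Under TMM the value for GRIA3 and GRIA4 was -0.38.

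Of the 45 pairs of members 28 had an adjusted p under 0.05 for Pearson's r. The share among pairs of all genes was not computed, so this count cannot be read as particular to these genes. GRIA2 had a higher r with LPPR4, a gene outside the members (0.99), than with GRIA3 (0.97). Within cohort 5 the r of GRIA2 with GRIA3 was 0.97, within cohort 7a 0.98 and within cohort 7b 0.98. That of GRIA4 with GRIK1 was 0.83, 0.65 and 0.90. The pair of GRIK2 and GRIA1 did not hold within cohort 5 (-0.16, against 0.98 in 7a and 0.75 in 7b). The 2 values of a point share a library and its scaling. Under TMM the r of GRIA2 with GRIA3 was 0.96 and that of GRIA4 with GRIK1 0.75, whereas that of GRIA2 with GRIK5 fell from 0.64 to 0.28 and no longer passed (adjusted p = 0.239). Without control 6 the r of GRIA2 with GRIA3 was 0.96 and that of GRIA4 with GRIK1 0.77.

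**Figure D4:**
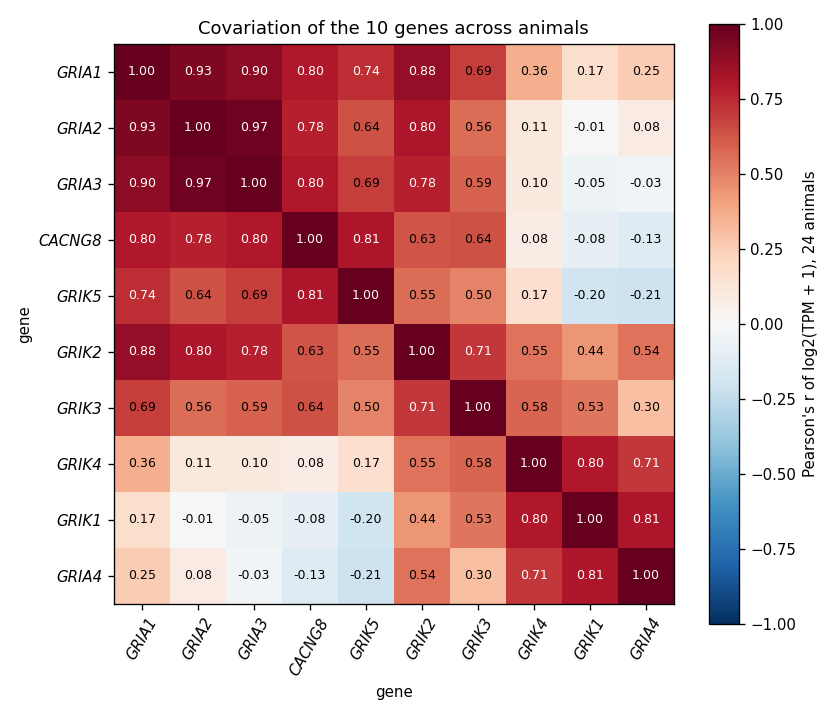
Pearson's r of log2(TPM + 1) over 24 animals between each pair of the 10 genes (colour and number, from -1 to 1). GRIA1, GRIA2, GRIA3, CACNG8, GRIK5 and GRIK2 form a block from 0.55 to 0.97, and GRIK4, GRIK1 and GRIA4 a second block from 0.71 to 0.81. GRIK3 is in neither block and correlates with genes of both.

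Some members of the 2 sets went opposite ways with the striatal projection neuron markers. The mean centred log2 level of these 12 markers correlated with GRIA3 at r = 0.80 (rho 0.86, permutation adjusted p = 0.000136), GRIA2 at 0.75 (rho 0.80, 0.000333), GRIK5 at 0.67 (rho 0.60, 0.000891), CACNG8 at 0.66 (rho 0.76, 0.000909) and GRIA1 at 0.59 (rho 0.63, 0.00897). It correlated with GRIK1 at -0.58 (rho -0.46, 0.00788) and GRIA4 at -0.53 (rho -0.46, 0.0214). GRIK4 (-0.37), GRIK2 (0.34) and GRIK3 (0.14) did not pass, with permutation adjusted p-values of 0.117, 0.171 and 0.642. Without the 2 farthest animals on the marker score the 7 values that passed were 0.70, 0.63, 0.63, 0.73, 0.50, -0.40 and -0.46. Within cohorts 5, 7a and 7b GRIA3 was at 0.92, 0.93 and 0.79, and CACNG8 at 0.95, 0.89 and 0.38, weakest in cohort 7b. The negative ones did not hold within cohort 7a, where GRIA4 was 0.26 and GRIK1 0.23, against -0.89 and -0.84 in cohort 5 and -0.77 and -0.86 in cohort 7b. Without control 6, whose score was the lowest, GRIA4 was -0.38 and GRIK1 -0.40. GRIA4 and GRIK1 correlated positively with the astrocyte score (0.61 and 0.67, but 0.020 and 0.32 within cohort 7a). Under TMM both missed the threshold (permutation adjusted p = 0.0634 and 0.0538). GRIK5 correlated negatively with the oligodendrocyte score (-0.60, but -0.094 within cohort 7a). Centred within cohort and group, this relation was -0.42 and did not pass (permutation adjusted p = 0.0674). Of these 75 relations 42 had an adjusted p under 0.05, and 37 did under TMM. The matching share over all genes was not computed.

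**Figure D5:**
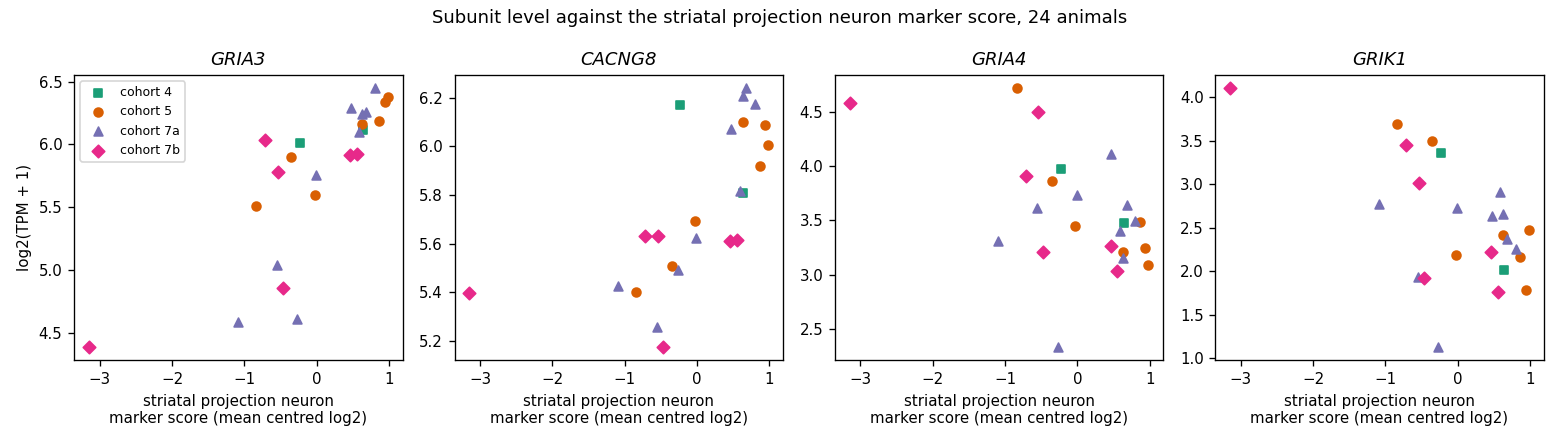
Log2(TPM + 1) of GRIA3, CACNG8, GRIA4 and GRIK1 against the striatal projection neuron marker score (mean centred log2 level of 12 markers) in 24 animals, with cohorts marked by colour and shape. GRIA3 and CACNG8 rise with the score, GRIA4 and GRIK1 fall with it in cohorts 5 and 7b but not in 7a, and the point at the far left is control 6.

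For each member the gene with the highest Pearson's r of log2(TPM + 1) over the 24 animals was sought among 13627 others. GRIA2 was closest to LPPR4, a phosphatase-related protein of glutamatergic synapses (r = 0.99), GRIA3 to FAM49A (0.98) and GRIA1 to SVOP, a synaptic vesicle protein (0.98). GRIK2 was closest to RARS, an arginyl-tRNA synthetase (0.94), GRIK5 to VSTM2L (0.94), GRIK1 to TRIB2 (0.94), CACNG8 to the adhesion receptor LPHN1 (0.93), GRIK3 to the kinase PAK1 (0.92), GRIA4 to EXOG (0.92) and GRIK4 to CHAC1 (0.88). These are the highest of many coefficients and are given as a description.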

How the data were processed

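The authors made polyA-selected libraries, aligned reads with STAR 2.5.2b to the MacaM assembly, and counted them on genes with HTSeq 0.6.1p1. The deposited values were read as TPM. The table is named as normalized counts, but its columns add up to 999998 to 1000000, and of the 400 lowest values above 0 in a library 372 to 389 were distinct, where counts divided by 1 factor per library would repeat. How the authors made these values is not given in the sources used here. The sources also disagree on strand and pairing of the libraries. The depth of each library is unknown from these values, and no test on counts was run.

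Tests used log2(TPM + 1) of the 13637 genes averaging 1 TPM or more, in limma 3.58.1 (R 4.3.3, empirical Bayes with trend, Benjamini-Hochberg, calls at 0.05). Animals were grouped by the labelled category, and replicate numbers follow the order of the record, so they pair no animals. Ratios, correlations and order were tested by permutation (Python 3.11.15, numpy 2.4.6, scipy 1.17.1, pandas 2.3.3), and plots were drawn with matplotlib 3.10.9. The limma fit was tested on simulated data. Named genes are the 10 members, the 3 partner genes with the smallest p per comparison, auxiliary subunits, and each member's most similar gene. Members, partner genes and 9 marker lists were chosen with earlier results of these data known. Other genes named were chosen after their values were seen. Alternatives were pseudocounts of 0.1 and 8, a filter of 10 TPM or none, TMM, cohort as a covariate, only the compared groups, and leaving out each animal. Leaving out 6 animals with SLC17A7 of at least 100 TPM or 4 with a pan-neuronal sum under 2000 TPM, and the striatal score as a covariate, were added after seeing the data. Sequences of the members were not used here. In the table, 27 symbols had been turned into dates.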

Additional observations from a re-analysis of the deposited data

Results flagged for a closer look

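Of 80 checks of a highest or lowest animal within a group of 4 or 8, made over the members and their ratios, 7 were past Dixon's 95% limit, in 5 animals. For independent checks of normally spread values chance alone gives about 1 in 20. These checks share animals and genes, and those of members used TPM without logs. The count of 7 therefore cannot be set against that rate. HD* 4 had GRIA4 at 25.3 TPM against 4.03 to 11.2 TPM in the other HD* animals, and GRIK1 at 11.9 TPM against 1.18 to 5.33 TPM. HD* 8 had a log2 ratio of CACNG8 to GRIA2 of 0.11, against -1.57 to -0.92 in the other HD* animals. HD* 2 had a log2 ratio of GRIA2 to GRIA1 of 0.12 among all HD* animals, where the others lay between -0.37 and -0.22, and was also far from the other HD animals alone with the same 0.12. HD* 3 had a log2 ratio of GRIA4 to GRIA2 of -4.25, against -4.12 to -4.10 in the other HD animals. That value lay within the range of all 24 animals, -4.64 to -0.94, and the HD values lay close together. Control 8 had a log2 ratio of GRIK5 to GRIK2 of 2.33, against 1.33 to 1.71 in the other controls.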

How the results depend on the processing

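The 3 comparisons of HD*, LD* and control animals gave 0 called genes in limma under every alternative, as did the subunit ratios. VHD against HD gave 1997 genes, but 723 without animals with SLC17A7 of at least 100 TPM (HD* 7), 606 without animals with a pan-neuronal marker sum under 2000 TPM (HD* 6 and HD* 8), 0 with the striatal score as a covariate, and 476 to 4651 on leaving out 1 animal. The cause was not tested. GRIA1 and GRIA2 also missed the threshold with no filter (adjusted p = 0.0975 and 0.0877). Of the fold changes of members under the other alternatives, 349 kept their direction and side of the threshold, 13 fell short of it and 34 changed sign. On leaving out an animal these were 488, 14 and 56, with 2 newly past it. Of ratio differences 26 kept both and 4 changed sign, or 273 and 15 on leaving out an animal. Of correlations 80 kept both, 21 fell short and 3 changed sign.

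Signs changed for these log2 fold changes, all of results that passed no threshold. For HD* against controls, TMM gave GRIA2 0.11, GRIK2 0.067 and GRIK3 0.018, the cohort covariate gave GRIA1 -0.12, GRIA3 -0.13 and CACNG8 -0.036, and cohorts 5 and 7a alone gave GRIA3 -0.085, GRIA4 0.087 and GRIK2 0.024. Leaving out the SLC17A7 animals gave GRIA2 0.058, leaving out the pan-neuronal ones gave GRIA2 0.15, GRIK2 0.064 and GRIK3 0.19, and the striatal covariate gave GRIA1 -0.13, GRIA3 -0.18 and CACNG8 -0.0038. For LD* against controls, TMM gave GRIA4 0.020, the SLC17A7 setting GRIK3 -0.097, the pan-neuronal setting GRIK4 0.013, and the striatal covariate GRIA4 0.097, GRIK2 -0.020 and GRIK4 0.018. For HD* against LD*, TMM gave GRIK5 0.077 and CACNG8 0.075, the SLC17A7 setting GRIK1 0.11 and GRIK4 0.048, and the pan-neuronal setting GRIK5 0.0092 and CACNG8 0.035. For VHD against HD, the pan-neuronal setting gave GRIK1 0.56, GRIK2 0.036 and GRIK4 0.44, the striatal covariate GRIA4 -1.65 and GRIK5 0.14, and a pseudocount of 8 gave GRIK1 0.0090. Log2 ratio differences of HD* from controls within cohort 5 were -0.036 for GRIA3 to GRIA2, 0.65 for GRIA4 to GRIA2 and -0.011 for GRIK5 to GRIK2, and within cohort 7a 0.081 for GRIA2 to GRIA1. Intake r in HD* animals under TMM was 0.084 for GRIA4, 0.023 for GRIK1 and 0.094 for GRIK5.

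Leaving out 1 animal gave ranges across 0 as follows. For HD* against controls they were GRIA1 -0.084 to 0.23, GRIA2 -0.22 to 0.18, GRIA3 -0.13 to 0.21, GRIK2 -0.14 to 0.056, GRIK3 -0.26 to 0.059, and the ratios CACNG8 to GRIA2 -0.048 to 0.27, GRIA2 to GRIA1 -0.15 to 0.020 and GRIA4 to GRIA2 -0.42 to 0.11. For LD* against controls they were GRIA4 -0.10 to 0.11, GRIK2 -0.049 to 0.15, GRIK3 -0.078 to 0.25, GRIK4 -0.17 to 0.045, and the ratios GRIA2 to GRIA1 -0.15 to 0.018 and GRIA4 to GRIA2 -0.52 to 0.0056. For HD* against LD* they were CACNG8 -0.10 to 0.063, GRIK2 -0.21 to 0.025, GRIK5 -0.079 to 0.035, and the ratios GRIA2 to GRIA1 -0.052 to 0.041, GRIA4 to GRIA2 -0.085 to 0.21 and GRIK5 to GRIK2 -0.0073 to 0.18. For VHD against HD they were GRIA4 -0.21 to 0.59, GRIK1 -0.63 to 0.23 and GRIK4 -0.59 to 0.13.

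No paired analysis was possible because replicate numbers only follow the order of the record. TPM hold no depth, so counting error cannot be given, and 4 animals against 4 limit the precision of VHD against HD.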

Other observations

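The members were also set against 6 further marker scores over the 24 animals, chosen after seeing the data. Of these 60 relations 26 had an adjusted permutation p under 0.05 for Pearson's r. The matching share over all genes was not computed. The interneuron score correlated with GRIA4 at r = 0.79 (Spearman's rho 0.56, 0.63 without the 2 animals farthest from the median score), with GRIK4 at 0.78 (rho 0.75, 0.63 without them) and with GRIK1 at 0.73 (rho 0.70, 0.54 without them). For GRIA4 the value within cohorts 5, 7a and 7b was 0.70, 0.77 and 0.96, and for GRIK1 it was 0.39, 0.91 and 0.89. The same 3 genes correlated with the oligodendrocyte precursor score (GRIA4 0.64, GRIK4 0.70, GRIK1 0.78), so these relations were not particular to interneuron markers. The pan-neuronal score correlated with GRIK3 at 0.88 (rho 0.77, 0.82 without the farthest 2) and with GRIA1 at 0.68 (rho 0.40, 0.45 without them), the latter at 0.054 within cohort 5. CACNG8 correlated at -0.63 (rho -0.63) with the microglial score, but at 0.077 within cohort 7b, and at 0.52 (rho 0.47) with the endothelial score. GRIK3 correlated at 0.56 (rho 0.32) with the cortical glutamatergic neuron score, at 0.27, 0.49 and 0.81 within the same cohorts. The cause of these relations was not tested.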
